A study of Mus musculus with 16 samples.

Results

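The cyclins of the D and E types and the inhibitors of their kinases are described here in cultured mouse astrocytes, as 10 of the 16707 genes whose log2 CPM the authors deposited. CPM are read counts scaled to a common library size. The members were taken by symbol and were the D cyclins Ccnd1, Ccnd2 and Ccnd3, the E cyclins Ccne1 and Ccne2, the CIP/KIP inhibitors Cdkn1a and Cdkn1b, and the INK4 inhibitors Cdkn2a, Cdkn2b and Cdkn2c. All 10 were in the table, so none was lost to its filter on low counts. Astrocytes came from the brains of C57BL/6J mouse pups, either wild-type (WT) or Nlrx1-/-, a knockout of a mitochondrial NOD-like receptor, at postnatal day 6 per the labels. The paper gives this age in its methods and a younger one in its results. Cells that bound beads against the astrocyte antigen ACSA2 were grown without serum and, in every group, with heparin-binding EGF, a mitogen. For each of 4 litters per genotype, one well received lipopolysaccharide (LPS, 500 ng/mL) and interferon gamma (IFNγ, 10 ng/mL) and another received vehicle, both for 24 h. This gave 4 groups of 4 libraries. The paper names the vehicle as water in its methods and as phosphate buffered saline in a figure legend. The replicate is the litter, and each litter had 1 genotype.

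D cyclins are made in response to mitogens and bind the kinases CDK4 and CDK6, and E cyclins bind CDK2. Both complexes phosphorylate the retinoblastoma protein, which frees E2F factors to switch on the genes of DNA replication and so carries a cell from G1 into S phase. INK4 proteins bind CDK4 and CDK6 and keep the D cyclins off them, while CIP/KIP proteins bind whole cyclin-kinase complexes and above all restrain CDK2. Astrocytes of the neonatal brain still divide, and most stop doing so as they mature.

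The genotype was checked first at Nlrx1 itself. Its log2 CPM was 4.44, 4.13, 4.11 and 4.21 in the WT vehicle libraries of litters 1 to 4, and 4.08, 4.09, 4.12 and 4.19 in their LPS + IFNγ libraries. In Nlrx1-/- it was 2.24, 2.96, 1.84 and 2.85 in vehicle and 2.19, 2.09, 1.09 and 2.23 in LPS + IFNγ, so every Nlrx1-/- library was below every WT library. The difference was -1.75 log2 units in vehicle (limma, adjusted p = 0.0497) and -2.22 in LPS + IFNγ (adjusted p = 0.00222). Salmon assigned between 27259420 and 43752903 read pairs to a library. All 10 genes of the astrocyte list were measured, with a summed CPM of 5038 to 10120 over the 16 libraries, while 10 of 12 microglial genes were below the table's filter and had at most 20 reads in a library. The reads carry no strand. Since 8 of the 10 members share exon bases with a gene on the opposite strand in GENCODE M39, all but Cdkn2a and Cdkn2b, reads of such partners cannot be told apart from those of the member.

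Cdkn2a and Cdkn1a each start at separate promoters, and the bases before these starts are printed because Cdkn2a and Cdkn1a rose strongly and, for Cdkn2a, the transcripts are followed below. Cdkn2a lies on the minus strand of chromosome 4 (GRCm39, chr4:89192708-89212890) and makes unrelated proteins from a shared second exon (chr4:89194882-89195222) read in different frames. The Ink4a transcript begins at its own first exon (chr4:89200223-89200429) and encodes 168 residues, and the Arf transcript begins further upstream (chr4:89212571-89212890) and encodes 169. Ink4a inhibits CDK4 and CDK6, whereas Arf binds MDM2 and so protects p53. The next gene upstream is Cdkn2b (chr4:89223204-89229276), 10314 bases away, whose product is another INK4 inhibitor. Cdkn1a (GRCm39, chr17:29309936-29319701, plus strand) encodes p21, a known target of p53. The sequences are the 250 bases before each start in RefSeq's table (build GRCm38.p6), in the direction of transcription, with motif matches in capitals. The table names no transcripts, so the Cdkn2a starts were told apart by their order along the gene.
Cdkn2a, start of Ink4a (GRCm38.p6, chr4:89282193-89282442, minus strand): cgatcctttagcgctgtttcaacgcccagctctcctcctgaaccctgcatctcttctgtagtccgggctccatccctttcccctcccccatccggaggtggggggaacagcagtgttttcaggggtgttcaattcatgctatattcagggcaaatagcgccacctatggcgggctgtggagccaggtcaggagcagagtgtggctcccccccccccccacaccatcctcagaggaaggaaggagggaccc
Cdkn2a, start of Arf (GRCm38.p6, chr4:89294620-89294869, minus strand): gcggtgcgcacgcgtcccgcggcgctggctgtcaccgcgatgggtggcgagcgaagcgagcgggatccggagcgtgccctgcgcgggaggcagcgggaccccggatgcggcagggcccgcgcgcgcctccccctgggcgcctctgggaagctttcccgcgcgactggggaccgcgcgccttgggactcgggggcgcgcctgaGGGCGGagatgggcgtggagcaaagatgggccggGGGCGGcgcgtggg
Cdkn1a, upstream start (GRCm38.p6, chr17:29090729-29090978, plus strand): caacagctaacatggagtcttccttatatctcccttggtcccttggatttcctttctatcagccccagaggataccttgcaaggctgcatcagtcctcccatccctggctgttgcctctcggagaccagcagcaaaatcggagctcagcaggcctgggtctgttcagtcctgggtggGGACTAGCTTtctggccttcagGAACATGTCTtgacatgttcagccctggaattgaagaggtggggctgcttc
Cdkn1a, downstream start (GRCm38.p6, chr17:29093519-29093768, plus strand): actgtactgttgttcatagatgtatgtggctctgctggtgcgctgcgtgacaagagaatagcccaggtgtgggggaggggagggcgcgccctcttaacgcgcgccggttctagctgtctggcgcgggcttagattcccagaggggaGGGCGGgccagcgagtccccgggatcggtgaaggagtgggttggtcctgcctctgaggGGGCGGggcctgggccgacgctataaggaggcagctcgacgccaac
The capitals mark GGGCGG, a core that Sp1 binds, in the Arf start and the downstream Cdkn1a start, and the decamer unit of the p53 consensus in the upstream Cdkn1a start. The Arf window is the richer of the Cdkn2a pair in G and C, at 78.4% with 40 CG pairs, against 60.0% and 7 at Ink4a. The upstream Cdkn1a window holds 2 such p53 units, at positions -73 and -51 from the start. That motif occurs in 7.13% of all 32851 promoter windows of this length, and GGGCGG in 32.7%.

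The table had entries for 7 of the 10 members, with 11 starts in all, and lacked Ccnd1, Ccnd2 and Ccne2. Both strands were searched for 8 motifs. GGGCGG was found at 7 of the 11 starts, which belong to 6 members. The p53 unit was found at 1 start. The window of Cdkn2b, whose estimated response was the largest of the members in both genotypes, is not printed and held none of the 8 motifs. No member window held the E2F sites TTTCGCGC and TTTGGCGC (0.256% and 0.417% of all windows), the GAS element TTCNNNGAA (7.02%), the core of the ISRE (2.98%), the NF-κB consensus (7.25%) or the AP-1 site TGANTCA (6.75%). Other forms of the E2F site were not searched, such as TTTCCCGC, which is in the printed Arf window in lower case. The motifs overlapped each other in none of the printed windows.

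Levels are compared between genes only in TPM, which are scaled by transcript length. In WT vehicle, Ccnd1 had the highest mean, 222.9 TPM ± 68.5 (SD, n = 4 litters). It was followed by Cdkn1b at 139.2 ± 16.96, Ccnd2 at 123.6 ± 20.6, Cdkn2c at 111.9 ± 19.2 and Ccnd3 at 84.3 ± 14.03. Neighbours in this order overlapped in their litters. Genes further apart need not, as the lowest Ccnd1 litter, at 147.0 TPM, was above every litter of Ccnd2, Cdkn2c and Ccnd3. Below a gap came Cdkn2b at 42.99 ± 7.29 and Cdkn1a at 33.7 ± 5.96, which overlapped each other. Cdkn2a at 22.2 ± 3.21 stood apart from both sides, and Ccne1 at 8.92 ± 4.87 and Ccne2 at 6.74 ± 5.56 overlapped at the bottom. The cells thus held far more D than E cyclin RNA in WT vehicle, with summed levels of 430.8 ± 99.5 and 15.7 ± 10.4 TPM.

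The order changed with LPS + IFNγ in both genotypes. In WT, Ccnd1 at 477.4 ± 147.2 TPM stood apart from every other member, and Cdkn2b at 121.5 ± 9.40 now lay among Ccnd2, Cdkn1b, Ccnd3, Cdkn2c and Cdkn1a, whose litters overlapped from one to the next. In Nlrx1-/-, Ccnd1 reached 804.5 ± 170.8 and was followed by Ccnd2 at 278.4 ± 66.1, Cdkn1a at 199.3 ± 78.6 and Cdkn2b at 161.4 ± 32.9. The litters of Ccnd2, Cdkn1a and Cdkn2b overlapped from one to the next. Among the D cyclins, Ccnd1 made up 51.1% of the summed TPM in WT vehicle and 64.8% in WT LPS + IFNγ, and 55.9% and 67.3% in Nlrx1-/-. Among the CIP/KIP pair, Cdkn1a went from 19.7% to 44.7% in WT and from 31.2% to 64.8% in Nlrx1-/-.

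**Figure D1:**
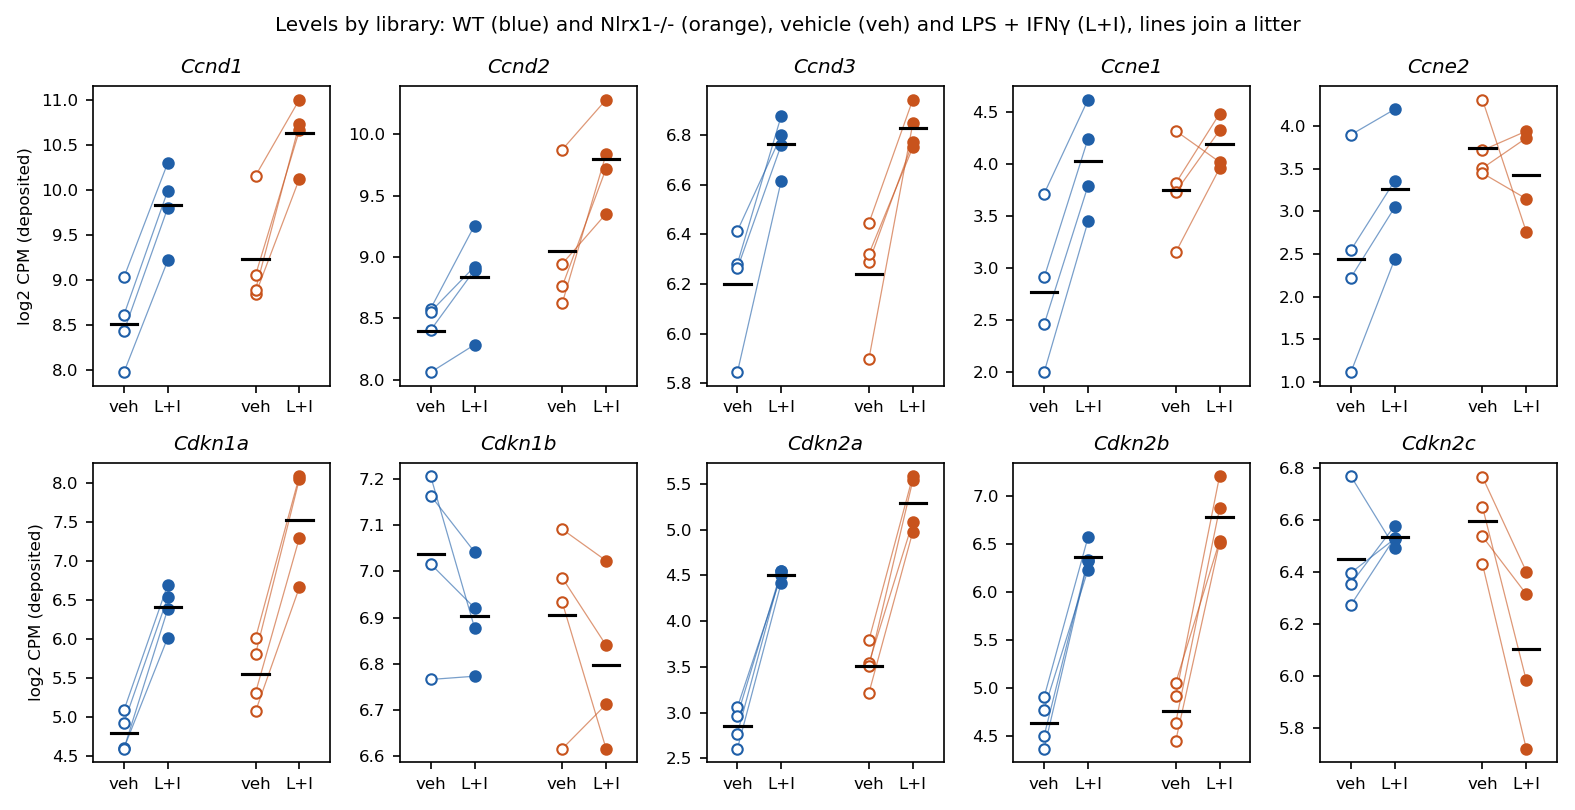
Log2 CPM of each member (vertical axis, scaled separately for each gene) in the 16 libraries, with open points for vehicle and filled points for LPS + IFNγ, a line joining the libraries of a litter and a bar at each group's mean. Cdkn1a, Cdkn2a and Cdkn2b moved up in all 8 litters, and Cdkn2c moved down in all 4 Nlrx1-/- litters.

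The first question was how LPS + IFNγ changed these genes in WT cells. Of the 10 members, 8 rose and 0 fell, where 46.7% of all genes tested were called (24.9% of all genes upwards and 21.9% downwards). The median of the members was 1.04 log2 units, against -0.02 over all genes. Cdkn1b and Cdkn2c were the members not called. In Nlrx1-/- cells 7 members rose and 1, Cdkn2c, fell, where 52.1% of all genes were called (26.6% up and 25.5% down). Their median was 0.67, against -0.02 over all genes. In bulk RNA, fewer cells of a type and less RNA per cell cannot be told apart. Several lists of genes of other cell types moved with the treatment. Summed CPM was lower after LPS + IFNγ in all 8 litters for the oligodendrocyte lineage list (10 of 10 genes measured), the ependymal list (4 of 5) and the fibroblast list (5 of 5). For the oligodendrocyte lineage it was 3150 to 3724 in WT vehicle and 2655 to 3244 in WT LPS + IFNγ, with overlap, and 3258 to 3959 and then 2323 to 3056 in Nlrx1-/-, without. Ependymal genes were at 173.9 to 236.7 and then 122 to 169.6 in WT, without overlap, and at 101.1 to 189.6 and then 71.59 to 117.5 in Nlrx1-/-, with overlap. The fibroblast list was at most 67.65 in any library. The neuron list (7 of 7) was higher in all 4 Nlrx1-/- litters, at 842.2 to 1002 in vehicle and 935.7 to 1185 in LPS + IFNγ. The part of these lists in the members' responses was not tested.

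Among the D cyclins, Ccnd1 responded the most. Its log2 CPM in WT litters 1 to 4 was 9.03, 8.62, 8.44 and 7.98 in vehicle and 10.31, 10.00, 9.81 and 9.22 in LPS + IFNγ. The groups did not overlap, as was the case upwards for 20.2% of all genes, and every litter moved by nearly the same amount. The response was 1.32 ± 0.12 (SE), a 2.49-fold rise (limma, adjusted p = 2.64e-06). In Nlrx1-/- the values were 9.06, 10.16, 8.85 and 8.90 in vehicle and 10.67, 11.01, 10.13 and 10.74 in LPS + IFNγ. Vehicle litter 2 stood above the others there, and the groups overlapped by that litter alone. The response was 1.396 ± 0.12 (adjusted p = 1.37e-06).

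Ccnd2 rose less. In WT it was 8.58, 8.40, 8.55 and 8.06 in vehicle and 9.26, 8.89, 8.92 and 8.29 in LPS + IFNγ, and in Nlrx1-/- 8.76, 9.87, 8.94 and 8.62 in vehicle and 9.72, 10.28, 9.35 and 9.84 in LPS + IFNγ. It was higher after treatment in all 8 litters although the groups overlapped. The responses were 0.44 ± 0.12 in WT (adjusted p = 0.00985) and 0.75 ± 0.12 in Nlrx1-/- (adjusted p = 2.56e-04). The WT call was lost without WT litter 1, where the response was 0.36 (adjusted p = 0.0584), and in the fit without litters as blocks (adjusted p = 0.196). Ccnd3 rose by a similar amount in the 2 genotypes, 0.56 ± 0.08 in WT (adjusted p = 1.96e-04) and 0.59 ± 0.08 in Nlrx1-/- (adjusted p = 1.13e-04). Its log2 CPM ran from 5.85 to 6.41 in WT vehicle and 6.62 to 6.88 in WT LPS + IFNγ, and from 5.90 to 6.45 and 6.75 to 6.94 in Nlrx1-/-, with no overlap between treatments in either genotype.

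The E cyclins had the lowest levels and litters far apart. Ccne1 in WT litters 1 to 4 was 3.72, 2.46, 2.91 and 2.00 in vehicle and 4.62, 3.79, 4.24 and 3.45 in LPS + IFNγ. All 4 WT litters went up, by 0.91, 1.33, 1.33 and 1.45. The mean response was 1.25 ± 0.16 (limma, adjusted p = 5.78e-05). In Nlrx1-/- Ccne1 was 3.82, 4.32, 3.73 and 3.15 in vehicle and 4.48, 4.02, 4.32 and 3.96 in LPS + IFNγ. Litters 1, 3 and 4 went up and litter 2, the highest in vehicle, went down, with responses of 0.67, -0.30, 0.59 and 0.81. The mean response of 0.44 ± 0.16 was called (adjusted p = 0.0378) but held in 6 of 15 alternatives, and edgeR gave an adjusted p of 0.0539. Without litter 2 the response was 0.69 (adjusted p = 8.82e-04), and without litter 4 it was 0.32 (adjusted p = 0.168). The litter responses of the genotypes did not overlap, Nlrx1-/- lying below WT, as for 5.25% of all genes.

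Ccne2, with 79 to 745 reads in a library, varied still more. In WT it was 3.90, 2.22, 2.55 and 1.11 in vehicle and 4.2, 3.05, 3.36 and 2.44 in LPS + IFNγ. Every WT litter went up, and litter 1 was the highest and litter 4 the lowest in both treatments. The WT response was 0.82 ± 0.26 (adjusted p = 0.0225), and it lost its call in 5 of 15 alternatives, with an adjusted p of 0.0677 without WT litter 2, 0.0691 without litter 3 and 0.110 without litter 4. In Nlrx1-/- Ccne2 was 3.72, 4.31, 3.51 and 3.45 in vehicle and 3.94, 2.76, 3.86 and 3.15 in LPS + IFNγ. Litters 1 and 3 were higher after treatment and litters 2 and 4 lower. The response of -0.32 ± 0.26 was not called (adjusted p = 0.331), and without litter 2 its sign turned, to 0.09 (adjusted p = 0.722).

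The CIP/KIP pair split. Cdkn1a was 5.08, 4.92, 4.597 and 4.589 in WT vehicle and 6.70, 6.53, 6.02 and 6.38 in WT LPS + IFNγ, without overlap. The response was 1.61 ± 0.09, a 3.05-fold rise (limma, adjusted p = 5.23e-08). In Nlrx1-/- it was 5.31, 6.01, 5.07 and 5.80 in vehicle and 7.29, 8.09, 6.66 and 8.05 in LPS + IFNγ. Litters 2 and 4 were the highest in both treatments, and the groups again did not overlap, as was so upwards for 17.6% of all genes. The response there was 1.98 ± 0.09, a 3.93-fold rise (adjusted p = 7.53e-09). Cdkn1b encodes p27, which holds resting cells out of the cycle. Its log2 CPM stayed between 6.62 and 7.21 in all 16 libraries, and its responses of -0.13 (95% interval -0.29 to 0.02) and -0.11 (-0.26 to 0.04) in WT and Nlrx1-/- were not called (adjusted p = 0.131 and 0.209).

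The 2 neighbours on chromosome 4 rose together. Cdkn2a was 3.06, 2.97, 2.77 and 2.604 in WT vehicle and 4.502, 4.55, 4.55 and 4.42 in WT LPS + IFNγ. The response was 1.66 ± 0.10, or 3.15-fold (limma, adjusted p = 7.58e-08). In Nlrx1-/- it was 3.22, 3.79, 3.54 and 3.51 in vehicle and 4.98, 5.59, 5.09 and 5.54 in LPS + IFNγ, a response of 1.78 ± 0.10 or 3.44-fold (adjusted p = 3.76e-08). Neither genotype had overlap between treatments. Cdkn2b was 4.78, 4.91, 4.504 and 4.37 in WT vehicle and 6.24, 6.57, 6.34 and 6.33 in WT LPS + IFNγ. The Nlrx1-/- litters went from 4.45, 4.92, 5.06 and 4.64 to 6.52, 7.21, 6.53 and 6.87. Cdkn2b also rose without overlap, by 1.73 ± 0.12 in WT (adjusted p = 2.87e-07) and 2.02 ± 0.12 in Nlrx1-/- (adjusted p = 6.75e-08), the latter a 4.05-fold change.

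Cdkn2c, the third INK4 member, on chromosome 4 but far from the pair (GRCm39, chr4:109517957-109524386), did not follow them. In WT it was 6.77, 6.40, 6.36 and 6.27 in vehicle and 6.50, 6.53, 6.58 and 6.53 in LPS + IFNγ, a difference of 0.08 (95% interval -0.13 to 0.29) that was not called (limma, adjusted p = 0.498). The Nlrx1-/- libraries had 6.77, 6.43, 6.54 and 6.65 in vehicle and 6.40, 5.72, 6.32 and 5.98 in LPS + IFNγ. All 4 Nlrx1-/- litters were lower after treatment and the groups did not overlap, as was so downwards for 14.4% of all genes. The fall was by 0.49 ± 0.10 (adjusted p = 0.00110), and it was called in each of 15 alternatives.

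**Figure D2:**
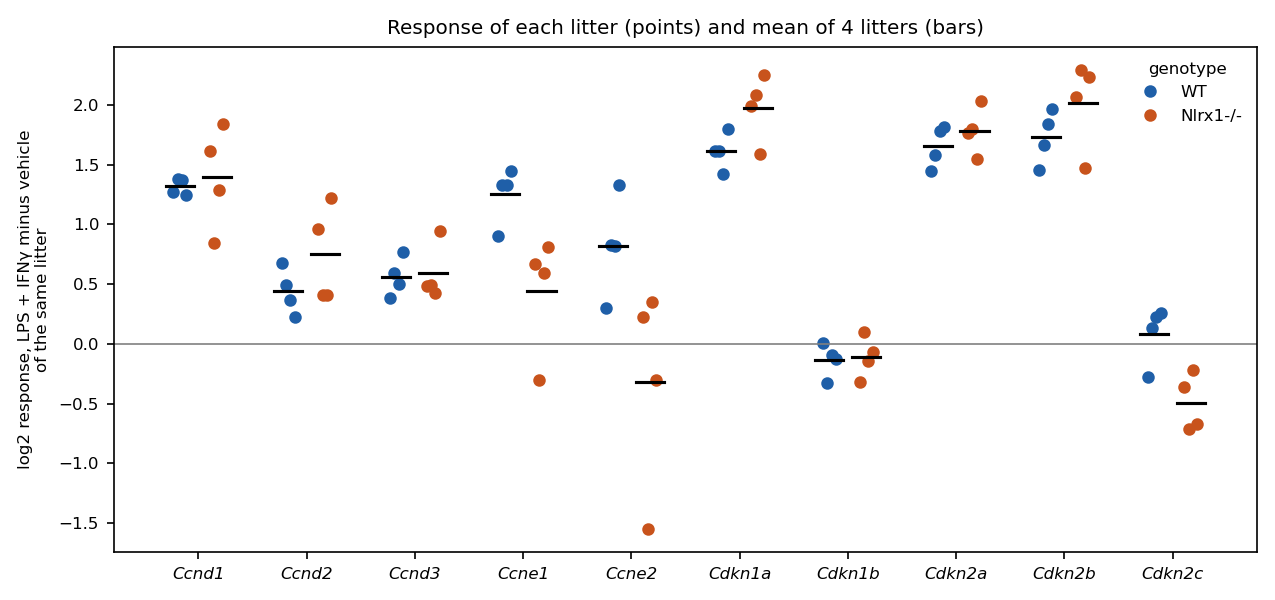
Response of each litter, as log2 CPM in LPS + IFNγ minus log2 CPM in vehicle (vertical axis), for WT (blue) and Nlrx1-/- (orange), with a bar at the mean of 4 litters. Cdkn1a, Cdkn2a and Cdkn2b lie above 1 in every litter, the Ccne1 points of the genotypes do not overlap, and litter 2 is the lowest Nlrx1-/- point for both E cyclins.

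In the Salmon estimates most Cdkn2a reads were of Arf, a mean of 73.3% and 82.9% in WT vehicle and LPS + IFNγ and of 69.8% and 79.3% in Nlrx1-/-, a split examined after the data had been seen. In WT the Arf transcript was at 21.7, 12.7, 16.7 and 12.2 TPM in vehicle and 44.5, 50.8, 46.9 and 51.3 TPM in LPS + IFNγ. The Nlrx1-/- libraries had 19.2, 24.8, 23.6 and 22.5 TPM in vehicle and 63.3, 91.9, 72.0 and 92.2 TPM in LPS + IFNγ. Arf was higher after treatment in all 8 litters, with no overlap in either genotype. Its log2 response was 1.89 ± 0.19 in WT (limma over 50162 transcripts, of which 9.14% were called, adjusted p = 4.33e-04) and 1.98 ± 0.19 in Nlrx1-/- (10.9% called, adjusted p = 2.91e-04).

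The Ink4a transcript was lower and less even. It was 4.09, 10.9, 4.25 and 6.23 TPM in WT vehicle and 17.2, 8.89, 14.035 and 5.65 TPM in WT LPS + IFNγ, so litters 1 and 3 went up and litters 2 and 4 down. The Nlrx1-/- libraries had 8.58, 15.0, 10.7 and 10.7 TPM in vehicle and 20.6, 28.4, 19.1 and 26.2 TPM in LPS + IFNγ, higher in all 4 litters without overlap. Its log2 responses of 1.07 ± 0.43 and 1.24 ± 0.43 were not called (adjusted p = 0.189 and 0.113). Ink4a took between 8.91% and 43.2% of the gene's reads in a WT library. The transcripts share the second exon and most of the third, so the split rests on reads from the exon parts that differ, and a difference between the responses of Arf and Ink4a was not tested.

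**Figure D3:**
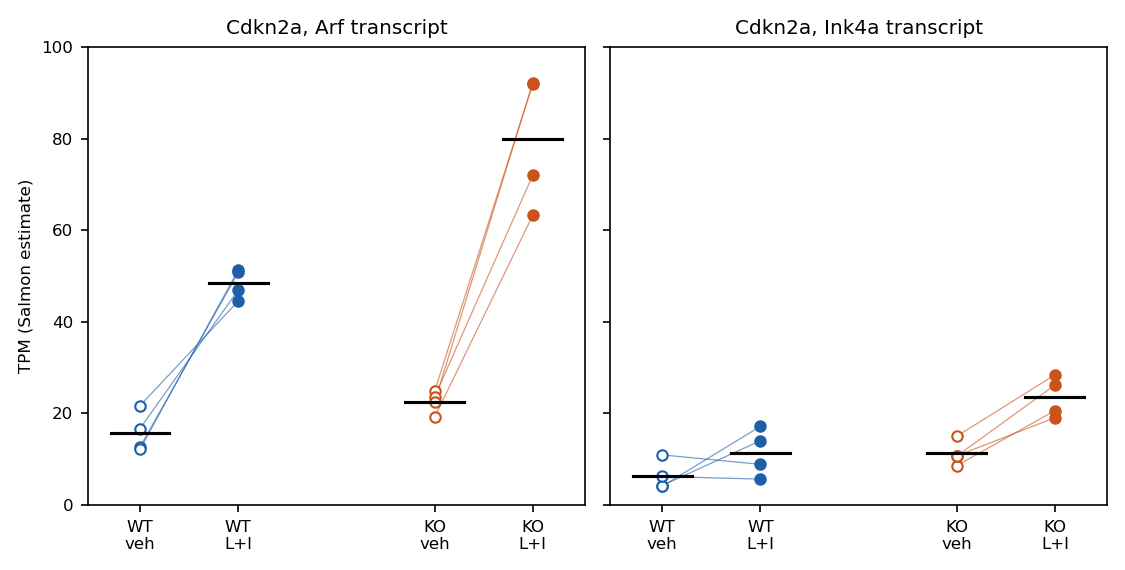
TPM of the Arf (left) and Ink4a (right) transcripts of Cdkn2a in each library, with lines joining the libraries of a litter and bars at the group means. Arf rises from means of 15.8 to 48.4 TPM in WT and from 22.5 to 79.9 TPM in Nlrx1-/-, and Ink4a stays below 30 TPM in every library.

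The second question was whether the genotypes differed at the same treatment. In vehicle, 9 of 10 members had a higher mean in Nlrx1-/-, and 0 passed the adjusted threshold in limma, as did 0.00599% of all genes, which is Nlrx1 alone. At an unadjusted p under 0.05 there were 6 members and 3532 of all genes, edgeR called 0 members and DESeq2 called 1, Cdkn2a, among 732 genes. The differences were largest in Ccne2 at 1.303 (95% interval 0.30 to 2.31, adjusted p = 0.150), Ccne1 at 0.98 (0.29 to 1.67, adjusted p = 0.124) and Cdkn1a at 0.75 (0.17 to 1.33, adjusted p = 0.153). Cdkn2a had the smallest adjusted p of the members, at 0.67 (adjusted p = 0.0928). For the E cyclins, WT litter 1 lay above the other WT litters, at 3.90 for Ccne2 against 1.11 to 2.55, and without it both were called, at 1.79 (adjusted p = 0.0366) for Ccne2 and 1.298 (adjusted p = 0.0372) for Ccne1. In that fit 494 genes of the whole table were called, against 1 with all litters. Without WT litter 4, the lowest, they were 0.86 (adjusted p = 0.370) and 0.73 (adjusted p = 0.334). For Ccnd1 the difference was 0.72 and without Nlrx1-/- litter 2 it was 0.42 (adjusted p = 0.524). For Ccnd2 it was 0.65 and without that litter 0.38 (adjusted p = 0.473). Litters of Ccnd2 and Cdkn2a did not overlap between genotypes, Nlrx1-/- being above, as for 6.02% of all genes (3.43% had Nlrx1-/- below).

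In LPS + IFNγ, 3 members were higher in Nlrx1-/- and 0 lower, where 8.8% of all genes were called (4.4% up and 4.41% down). These were Cdkn1a at 1.12 ± 0.28, a 2.17-fold difference (limma, adjusted p = 0.0349), Ccnd2 at 0.96 ± 0.26, 1.94-fold (adjusted p = 0.0391), and Cdkn2a at 0.79 ± 0.15, 1.73-fold (adjusted p = 0.0349). The libraries of Ccnd2 and Cdkn2a did not overlap between genotypes, as for 7.09% of all genes upwards, whereas those of Cdkn1a did, since Nlrx1-/- litter 3 at 6.66 was below WT litter 1 at 6.70. Cdkn2c had the opposite sign, at -0.43 ± 0.13 with an adjusted p of 0.0525, and its libraries did not overlap, as for 6.23% of all genes downwards. Ccnd1 at 0.80 (adjusted p = 0.0867) and Cdkn2b at 0.41 (adjusted p = 0.105) were not called. Ccnd3, Cdkn1b, Ccne1 and Ccne2 differed by 0.07, -0.11, 0.17 and 0.17, with intervals that all held 0, of which that of Ccne2 ran from -0.84 to 1.17.

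These genotype calls were not stable. Cdkn1a and Cdkn2a were each called in 9 of 16 alternatives and Ccnd2 in 7, while their differences kept their sign and ran from 0.93 to 1.404, 0.70 to 0.90 and 0.77 to 1.11. All 3 calls were lost when the variance was not modelled with a trend, when only the 8 LPS + IFNγ libraries were used, and without WT litter 2, 3 or 4 or Nlrx1-/- litter 2 or 4, and there only 1 or 2 genes of the whole table were called. In the 8-library fit each litter gives 1 library, whereas the main fit takes both wells of a litter as independent. Without Nlrx1-/- litter 3, 5 members were called higher and Cdkn2c lower. In that fit 3868 genes of the whole table were called, against 1471 with all litters. Ependymal genes, of which 4 of 5 were measured, were lower in Nlrx1-/-, with a summed CPM of 122 to 170 in WT and 71.6 to 118 in Nlrx1-/- after LPS + IFNγ, and 174 to 237 and 101 to 190 in vehicle, where the groups overlapped. The ranges of the astrocyte, oligodendrocyte lineage, fibroblast and neuron lists overlapped between genotypes in both treatments. Their part in the genotype differences was not tested.

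**Figure D4:**
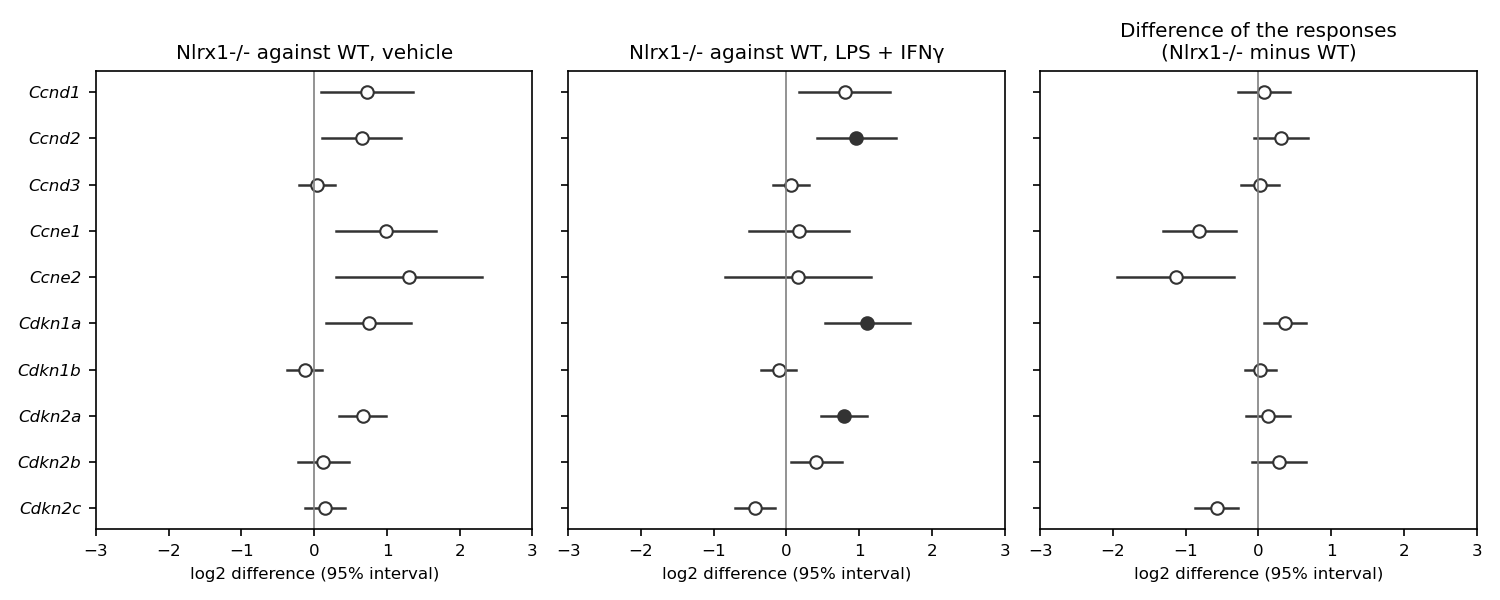
Log2 difference with its 95% interval (horizontal axis) for each member, as Nlrx1-/- against WT in vehicle (left) and LPS + IFNγ (middle), and as the Nlrx1-/- response minus the WT response (right), with filled points for an adjusted p under 0.05. Filled points appear only in the middle, for Ccnd2, Cdkn1a and Cdkn2a, and these 3 calls depend on the alternative used.

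The third question was whether the response itself differed between genotypes. No member was called by limma, nor was any other gene (0.0% of 16707, smallest adjusted p = 0.164), with 4 members and 2786 genes at an unadjusted p under 0.05. edgeR called 0 genes and DESeq2 308, with 1 member among them, Cdkn2c at -0.58 (DESeq2, adjusted p = 0.0198). The 4 members were Cdkn2c at -0.58 (95% interval -0.87 to -0.28, adjusted p = 0.164), Ccne1 at -0.81 (-1.31 to -0.31, adjusted p = 0.169), Ccne2 at -1.14 (-1.94 to -0.33, adjusted p = 0.184) and Cdkn1a at 0.37 (0.08 to 0.65, adjusted p = 0.204). The estimates for both E cyclins and Cdkn2c lay lower in Nlrx1-/- and that for Cdkn1a higher. Without Nlrx1-/- litter 2 the values for Ccne1 and Ccne2 were -0.57 and -0.73. Without Nlrx1-/- litter 3, where 822 genes were called, Cdkn2c, Cdkn1a and Cdkn2b were called, at -0.67, 0.50 and 0.47 (adjusted p = 0.0246, 0.0263 and 0.0486). For Ccnd1, Ccnd3, Cdkn1b and Cdkn2a the difference was between 0.03 and 0.13, and the interval for Ccnd1 ran from -0.28 to 0.44.

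Genes around the members were counted by list. Of 27 other genes of the G1/S machinery, 10 rose and 5 fell in WT, with a median of 0.16 log2 units, and 4 rose and 11 fell in Nlrx1-/-, with a median of -0.13. Of all genes, 24.9% rose and 21.9% fell in WT and 26.6% rose and 25.5% fell in Nlrx1-/-, and the 15 genes of 27 called in each genotype stand beside 46.7% and 52.1% of all genes. Cdk6, a kinase partner of the D cyclins, rose by 1.22 in WT and 1.49 in Nlrx1-/- (limma, adjusted p = 2.78e-06 and 4.07e-07). Cdk4, their other kinase partner, did not rise, with -0.03 in WT and -0.21 in Nlrx1-/- (limma, adjusted p = 0.734 and 0.0132). Rbl1, a relative of the retinoblastoma protein, rose by 1.04 and 0.74. Cdkn1c, the third CIP/KIP inhibitor, went the other way from Cdkn1a, falling by 1.58 and 1.56 on the log2 scale (adjusted p = 9.42e-05 and 8.77e-05). In WT, Rbl2 fell by 0.38, and in Nlrx1-/- cyclin A1, Ccna1, fell by 2.33 (adjusted p = 0.00189). Between the genotypes in LPS + IFNγ, E2f4 was higher by 0.41, and Ccna1 and Rb1 were lower, at -1.81 and -0.40 (limma, adjusted p = 0.0349, 0.0395 and 0.0416). These calls come from the fit whose calls depend on the alternative.

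Proliferation markers mostly fell in Nlrx1-/-. Of 10, 2 rose and 3 fell in WT (median -0.06), and 0 rose and 9 fell in Nlrx1-/- (median -0.49), where 21.9% of all genes fell in WT and 25.5% in Nlrx1-/-. In WT the replication clamp Pcna rose by 0.51 and the topoisomerase Top2a by 0.24, while the mitotic cyclins Ccnb2 and Ccnb1 fell by 0.39 and 0.37. In Nlrx1-/- Mki67 fell by 0.78 and Ccnb2 by 0.78 (limma, adjusted p = 1.33e-04 and 1.24e-04). A difference of the responses or between the genotypes was called for 0 of the 10.

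Most genes of the p53 pathway list rose, as did Cdkn1a. Of its 20 genes 13 rose and 2 fell in WT (median 0.44), and 16 rose and 2 fell in Nlrx1-/- (median 0.69), where 24.9% and 26.6% of all genes rose. In WT the death receptor Tnfrsf10b rose by 1.38 and Ccng1 by 1.04, and in Nlrx1-/- the stress gene Sesn2 rose by 1.81 and Tnfrsf10b by 1.62. Btg2 and Sesn1 fell in both, by 1.02 and 0.23 in WT and by 1.16 and 0.47 in Nlrx1-/-. Between genotypes in LPS + IFNγ 11 of the 20 were called higher and 0 lower, where 4.4% and 4.41% of all genes were (median 0.47, against -0.00 over all genes), led by Sesn2 at 1.21 and the growth arrest gene Gadd45a at 1.08 (limma, adjusted p = 0.0349 and 0.0404), in the fit whose calls depend on the alternative.

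**Figure D5:**
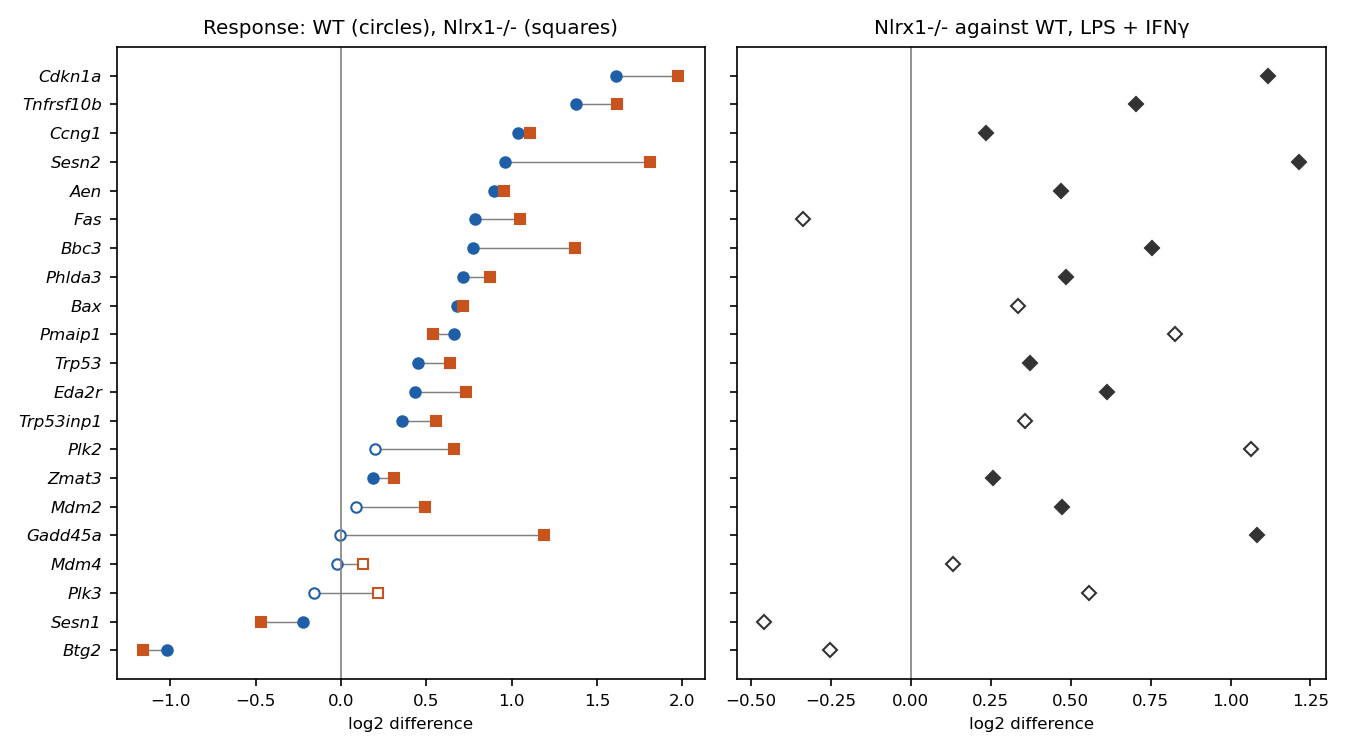
Log2 response to LPS + IFNγ (left, WT circles and Nlrx1-/- squares) and log2 difference of Nlrx1-/- against WT in LPS + IFNγ (right) for Cdkn1a and the 20 genes of the p53 list, ordered by the WT response, with filled symbols for an adjusted p under 0.05. Cdkn1a has the largest WT response of these genes, Sesn2 has the largest genotype difference, and Btg2 and Sesn1 fell in both genotypes.

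Of 22 genes that carry or report mitogen signals to the D cyclins, 10 rose and 3 fell in WT (median 0.27), and 13 rose and 2 fell in Nlrx1-/- (median 0.71), where 24.9% of all genes rose and 21.9% fell in WT and 26.6% and 25.5% in Nlrx1-/-. The EGF receptor ligand Ereg rose by 1.63 in WT and the early growth response factor Egr2 by 1.53, and in Nlrx1-/- Egr2 rose by 2.11 and Junb by 2.06. Mycn fell by 1.36 and 1.34, Fos fell by 1.26 in WT, and Etv5 fell by 0.16 in Nlrx1-/-. Areg, another EGF receptor ligand, was the 1 gene of the list higher in Nlrx1-/- in LPS + IFNγ, at 2.49 (limma, adjusted p = 0.0379). Of 11 FOXO, SMAD and Polycomb genes that act on the inhibitors, 2 rose and 4 fell in WT, and 3 rose and 4 fell in Nlrx1-/-, a share called near the 46.7% and 52.1% of all genes. Smad2 and Smad3, which carry TGF-β signals to Cdkn2b, rose by 0.35 and 0.34 in WT and by 0.25 and 0.58 in Nlrx1-/-. The Polycomb gene Cbx7 fell by 0.64 and 0.78, the factor Foxo3 fell by 0.45 in WT, and Ezh2, another Polycomb gene, fell by 0.32 in Nlrx1-/-. In LPS + IFNγ, Smad3 and Bmi1, a Polycomb repressor of Cdkn2a, were higher in Nlrx1-/- by 0.48 and 0.30 (limma, adjusted p = 0.0355 and 0.0366). Like that of Areg, these calls come from the fit whose calls depend on the alternative. The difference of the responses and the vehicle comparison called 0 genes in each of these lists.

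The genes most like each member over the 16 libraries, which share litters and 4 conditions, were described by Pearson's r among 12012 genes with a mean of at least 1 log2 CPM. Ccne1 was closest to Mcm3, Hells and Mcm6 (r = 0.979, 0.978 and 0.975), of which Mcm3 and Mcm6 are parts of the replicative helicase. Ccne2 was closest to Topbp1, Mms22l and Dtl (r = 0.975, 0.967 and 0.966), which act at replication forks. Cdkn2c was closest to Mxd3, Ccnf and Rtkn2 (r = 0.973, 0.953 and 0.953). Ccnd1 followed Fbl (r = 0.985), Spred2 and Kdelr2 (both 0.984), and Ccnd2 followed Abce1, Mrto4 and Ddx21 (0.989, 0.988 and 0.987), where Fbl, Mrto4 and Ddx21 work in ribosome assembly. Ccnd3 was nearest to Tubb2a, F2rl1 and Tagln2 (0.973, 0.958 and 0.957). Cdkn1a was nearest to Gypc, Sting1 and Spats2l (0.990, 0.985 and 0.982), Cdkn2a to Il34, Mrpl38 and Txnl1 (0.991, 0.987 and 0.986), and Cdkn2b to Ccng1, Lmo4 and Nmi (0.989, 0.988 and 0.985). Cdkn1b had the loosest match, Klf15, Zfyve1 and Abtb1 (0.917, 0.897 and 0.848).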

How the data were processed

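Poly-A RNA of 16 libraries was read without strand information. The authors quantified RefSeq transcripts of GRCm39 with Salmon 1.7.0 and deposited, per transcript and library, the expected count, which is not normalized, the TPM and the effective length. The authors also deposited a signal table of CPM per gene, from length-scaled counts filtered with filterByExpr and divided by TMM-adjusted library sizes (limma 3.58.1), and a table of log2 values of the same CPM, made with a prior count. Libraries were assigned to groups from their labels.

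Except where edgeR, DESeq2 or transcripts are named, tests were fitted in limma 3.58.1 (lmFit, contrasts.fit and eBayes with a variance trend, two-sided) in R 4.3.3 on the deposited log2 CPM of all 16707 genes, with Benjamini-Hochberg adjustment over the table and a threshold of 0.05. Responses and their difference had litters as blocks within genotype, as in the study's formula. Genotypes were compared over 4 condition means of all 16 libraries, without litters, since a litter has 1 genotype. The vehicle and LPS + IFNγ wells of a litter were treated there as independent, so these p-values can be too small. The series' design text states that the wells of a litter share mice, and their deviations correlated at r = 0.0733 to 0.355, above those with other litters. Fold changes are on the log2 CPM scale, whose prior of 0.056 to 0.057 CPM is small against every member.

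TPM and expected counts were summed per gene over 106430 of 129698 transcripts that RefSeq's table for GRCm38.p6 pairs with a symbol, which held 96.7% to 97.3% of the reads. Of the members, Ccne2 had the fewest reads, 79 in a library, so counting error is largest there. Alternatives used edgeR 4.0.16 and DESeq2 1.42.0 on these counts, filtered by filterByExpr at a minimum count of 10, and log2(CPM + 1), a mean of at least 1 log2 CPM, no trend, another use of the block and each litter left out. Transcripts of Cdkn2a were tested with limma on log2 CPM of expected counts, an alternative added after the data were seen. Fits were tested on simulated data. Plots were drawn with matplotlib 3.10.9 from tables made in pandas 2.3.3 and Python 3.11.15.

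The members and the gene lists were chosen with earlier results of these data known, and the motifs after the files had been read. Named are all members, Nlrx1, the 2 called genes of each list with the largest change in each direction, Cdk4 beside Cdk6, and the 3 genes with the highest r to each member. Positions are from GENCODE M39.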

Additional observations from a re-analysis of the deposited data

Results flagged for a closer look

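A sample far from the other 3 of its group was looked for with Dixon's ratio, the gap to the nearest sample divided by the range, in 60 groups of levels and responses, where chance alone gives about 1 group in 20. The ratio passed Dixon's critical value (95% level) in 2 groups. The Ccnd1 level of Nlrx1-/- litter 2 in vehicle was 10.16 log2 CPM against 8.85 to 9.06 in the other litters, a ratio of 0.839. The Ccnd3 response of Nlrx1-/- litter 4 was 0.95 log2 units against 0.43 to 0.50 in the others, a ratio of 0.87, and without that litter the Nlrx1-/- response of Ccnd3 was 0.47 (limma, adjusted p = 2.53e-04).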

How the results depend on the processing

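Over 770 refits of single members' values, 698 kept the sign and the side of the threshold, 39 lost a call, 22 gained one and 11 turned sign. The turned values were all uncalled and came with 1 litter left out. With each litter left out, the Nlrx1-/- response of Ccne2 ran from -0.543 to 0.0924, the response difference of Ccnd1 from -0.0703 to 0.261, of Ccnd3 from -0.0920 to 0.0972 and of Cdkn1b from -0.0421 to 0.0956, the vehicle difference of Ccnd3 from -0.0810 to 0.151, and the LPS + IFNγ difference of Ccne1 from -0.0209 to 0.369 and of Ccne2 from -0.107 to 0.479. Cdkn2a was called in LPS + IFNγ as a gene, but neither transcript was, at 1.11 for Ink4a and 0.69 for Arf (limma over transcripts, adjusted p = 0.259 and 0.191). Of all 50162 transcripts tested there, 11 (0.0219%) were called, against 8.8% of genes, so an absent call was the usual outcome.

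The response counts over all genes stayed within 1.5 times in every alternative run. For Nlrx1-/- against WT in LPS + IFNγ, 1471 genes were called by limma with trend, 809 by edgeR, 871 by edgeR with DESeq2 size factors, 2371 by DESeq2, 2 without the trend, 1 with 8 libraries and 1 to 3868 with a litter left out. The 3 members called higher became 0 without the trend, 0 with 8 libraries and 0 to 5 with a litter left out. A member, Cdkn2c, was called lower by DESeq2 (1) and with the filter at 1 log2 CPM (1), and 0 to 1 with a litter left out. In vehicle, 1 gene became 0 in edgeR, with size factors, with the filter, without the trend and with 8 libraries, 732 in DESeq2 and 0 to 1618 with a litter left out. Members called higher there were 1 in DESeq2 and 0 to 3 with a litter left out. The response difference had 308 genes and 1 member lower in DESeq2, and 0 to 822 genes, 0 to 2 members higher and 0 to 1 lower with a litter left out. The cause of these changes was not tested.

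Replicate numbers are not stated to pair WT with Nlrx1-/- litters, and the same-numbered libraries correlated at r = -0.0892 to 0.18. With that number as a replicate block, the genotype comparison called 2815 genes, 5 members higher and 1 lower in LPS + IFNγ, and 591 genes and 2 members higher in vehicle. Without litters as a replicate block, Ccnd2 and Ccne2 in WT and Ccne1 in Nlrx1-/- lost their calls. Depth limits the E cyclins and Cdkn2a most, which had the fewest reads of the members.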
